A study of Mus musculus with 12 samples.

Results

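The genes described here encode lysosomal hydrolases, their activators and the membrane proteins of the lysosome, together with the transcription factors Tfeb and Tfe3, in mouse bone marrow-derived macrophages (BMDMs). Cathepsins were left out. The list held 35 gene symbols. A member was measured where a probe set of the array was annotated to that single symbol, and the probe set with the highest mean signal stood for the gene. This gave 34 members among 18193 genes, and Cd63 was not analysed here. The rule used no difference between groups.

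Control BMDMs were of the genotype Trspfl/fl-LysM-Cre-/- and ΔTrspM BMDMs of the genotype Trspfl/fl-LysM-Cre+/-, all from female mice of the strain given as c57bl6, whose age was not stated. Both genotypes carried the floxed alleles of Trsp, the gene for the selenocysteine tRNA needed to make selenoproteins. Cre under the lysozyme M promoter acts in macrophages and other myeloid cells. Marrow cells were grown for 7 days with M-CSF and were then left unstimulated or given lipopolysaccharide (LPS), a bacterial activator of macrophages, for 4 h, and the dose used for the arrays was not stated. Each of the 4 groups had 3 arrays, labelled as biological replicates 1, 2 and 3. Trsp itself, a tRNA gene, was not analysed here, so the deletion was not checked in these values.

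Lysosomes are acidic compartments in which macrophages degrade what they take up and recycle their own components. Soluble hydrolases each cut a particular bond of a lipid, glycosaminoglycan, glycogen or protein, and inherited loss of one of them causes a storage disease. Membrane glycoproteins line the compartment, and transporters and channels move the products and ions out. TFEB and TFE3 are related basic helix-loop-helix factors that enter the nucleus when nutrient signalling at the lysosome falls, and they bind a CACGTG-centred motif in the promoters of many lysosomal genes.

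Of the 34 measured members, 32 had a promoter window in the RefSeq sequence table of build GRCm38.p6, which runs from 250 bases before to 50 bases after each annotated start. The palindrome CACGTG, the same on both strands, was present in a window of 9 members, which is 28.1% of 32. It was present in 7.15% of all 32851 windows and in a window of 8.09% of all 27025 genes. The longer TCACGTGA, which contains CACGTG, was found in 3 members, Mcoln1, Cln3 and Gla, against 1.12% of genes. The stretches below are those around every CACGTG before the start in the 4 members that had more than 1 copy, and in Sgsh, which had the largest LPS difference among the member hydrolases on the probe sets used. They are written 5′ to 3′ on the gene's strand with CACGTG in capitals.
Lamp1, chr8:13159085-13159160, plus strand: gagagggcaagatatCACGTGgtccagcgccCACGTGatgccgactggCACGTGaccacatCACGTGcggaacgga
Cln3, chr7:126583337-126583400, minus strand: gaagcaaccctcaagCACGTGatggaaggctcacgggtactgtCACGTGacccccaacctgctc
Mcoln1, chr8:3500433-3500494, plus strand: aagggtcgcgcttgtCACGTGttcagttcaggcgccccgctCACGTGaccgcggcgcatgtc
Gla, chrX:134601179-134601247, minus strand: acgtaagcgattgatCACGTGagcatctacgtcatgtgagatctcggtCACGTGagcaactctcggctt
Sgsh, chr11:119355519-119355554, minus strand: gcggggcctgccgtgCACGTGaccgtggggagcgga
Lamp1 carried 4 copies, whose first bases lay at positions -61, -45, -28 and -15 from the start. The other 4 members with a copy were Glb1, Arsa, Naglu and Gaa, with 1 each. None of the 3 windows of Tfeb or the 2 of Tfe3 held the motif, which says only that these letters were not in those windows. The table held no window for Npc1 or Asah1.

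All values below are log2(signal + 16) after quantile normalisation of the deposited signals, so a difference of 1 is a doubling and changes of dim genes are understated. Genes called higher or lower passed an adjusted p under 0.05 in limma, with Benjamini-Hochberg adjustment over all 18193 genes and 1 fit of all 12 arrays. Mean deposited signal per array was between 575 and 861 in 9 arrays and lower in control LPS replicate 2, ΔTrspM LPS replicate 1 and ΔTrspM LPS replicate 2, at 492, 492 and 199.7. In ΔTrspM LPS replicate 2, 47.7% of probe sets were below a signal of 16, against 16.1% to 28.8% in the other arrays. The number of arrays limits the precision. Tnf, Il1b, Il6 and Nos2, which macrophages induce on LPS, were called higher in both genotypes, by 3.93 to 7.38 in control and 3.57 to 8.22 in ΔTrspM cells. The summed signal of 8 macrophage markers was between 54721 and 70561 in every array. The summed signals of 4 mast cell and 5 lymphoid markers stayed at or below 258 and 171 in every array, while 8 stromal markers ranged from 475 to 8522. The 7 osteoclast markers summed to between 4515 and 8931 and 5 dendritic cell markers to between 4205 and 10113.5. The 7 neutrophil markers summed to between 4668 and 11696 unstimulated and between 7681 and 19197 after LPS. All 7 neutrophil markers had higher means after LPS in both genotypes. The part of these cell types in the member values was not tested, and in bulk RNA fewer cells of a type cannot be told apart from less RNA per cell.

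The first question was how the lysosomal genes responded to LPS. Tfeb was lower after LPS in both genotypes and Cln3, a lysosomal membrane protein lost in a childhood neuronal storage disease, was higher in both. Npc1, which exports cholesterol from the lysosome, was also called lower in control cells. In control cells 1 member was called higher and 2 lower, where 7.09% of all genes were called higher and 8.54% lower. In ΔTrspM cells 1 member was called higher and 1 lower, against 7.29% and 8.51% of all genes. The members' shares did not exceed these backgrounds, and the calls are results about single genes.

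The direction of the group means was more uniform than the calls. In control cells 31 of 34 members had a lower mean after LPS, against 53.5% of all genes, and in ΔTrspM cells 30 of 34, against 52.2%. All 34 members had a mean log2 signal of at least 6, and among the 11627 genes that bright 58.7% and 58% had a lower mean. The median difference of the members was -0.42 in control and -0.31 in ΔTrspM cells, beside -0.05 and -0.03 over all genes and -0.14 and -0.13 over those of at least that brightness. These 11627 genes were not matched to the members in brightness, since the members averaged 10.58 to 11.60 in each array. Without control LPS replicate 2 the control median was -0.22, beside -0.02 over all genes. With the mean of probe sets for each gene, the medians were -0.28 in control and -0.23 in ΔTrspM cells. Over all genes they were then -0.03 and -0.02. The 2 comparisons share no arrays, but same-numbered arrays of the 2 genotypes deviated together, with correlations of 0.17 to 0.44. They are thus not independent.

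For part of the list the direction depended on the scaling of the arrays. Under median centring, division by trimmed means and no scaling, 26, 28 and 32 members were lower in control cells and 27, 21 and 34 in ΔTrspM cells. Lower under all 4 scalings were 26 members in control and 20 in ΔTrspM cells. Bright members such as Lamp1, Laptm5 and Psap changed sign between scalings in both genotypes. The members' median minus that of all genes was below 0 under each scaling, at -0.38 to -0.28 in control and -0.47 to -0.19 in ΔTrspM cells.

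The 3 unstimulated and 3 LPS arrays of control cells did not overlap in 11 lower and 1 higher member, where 27.4% and 17.9% of genes of at least that brightness separated in those directions. In ΔTrspM cells 12 members separated downward and 2 upward, against 27.6% and 17.9%. Same-numbered arrays of compared groups deviated together, so within-number differences are given too. The LPS array was lower than the unstimulated array of its number in all 3 pairs for 27 members in control cells and 22 in ΔTrspM cells, where 43% and 38.3% of the 11627 genes at or above 6 did so.

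**Figure D1:**
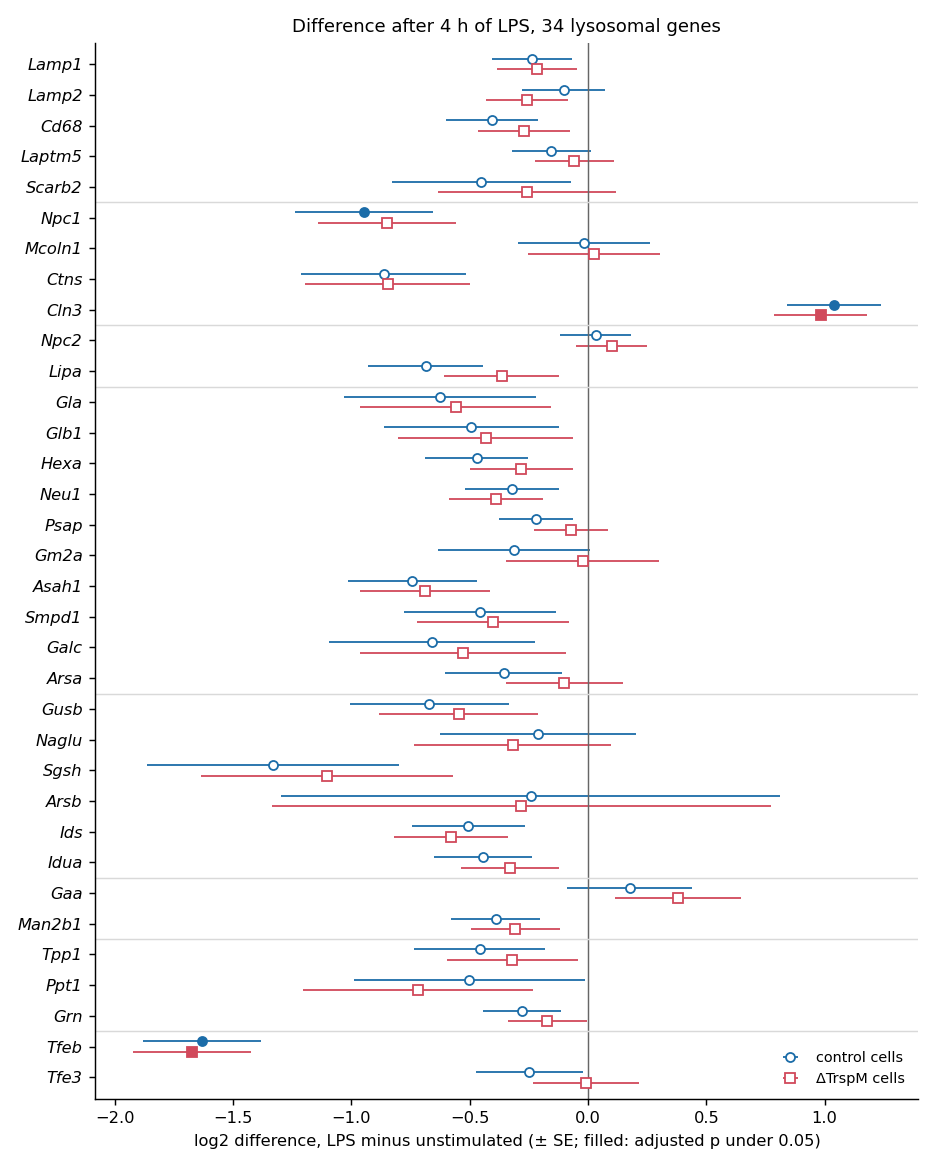
Difference in log2 signal between LPS-stimulated and unstimulated cells for each of the 34 members, grouped by role, with circles for control and squares for ΔTrspM cells, bars of 1 standard error, and filled symbols for an adjusted p under 0.05 in limma. Most symbols lie left of 0, Tfeb lies farthest left at -1.63 and -1.67, and Cln3 lies farthest right at 1.04 and 0.98.

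Of the transcription factors, Tfeb had the largest difference of any member over all 12 arrays, although without the arrays numbered 2 Sgsh, at -1.88 in control cells, lay beyond Tfeb at -1.65. Unstimulated control arrays read 9.32, 9.21 and 9.61 for replicates 1, 2 and 3, and the LPS arrays 7.50, 7.61 and 8.14. Unstimulated ΔTrspM arrays read 9.72, 9.80 and 9.47, and the LPS arrays 7.56, 8.34 and 8.06. In each genotype every LPS array lay below every unstimulated array. Tfeb fell by 1.63 ± 0.25 (SE) in control cells, or 3.10-fold, with an adjusted p of 0.0013 in limma. It fell by 1.67 ± 0.25 in ΔTrspM cells, or 3.19-fold, with an adjusted p of 0.0012 in limma. It was called under all 23 alternatives run for each genotype.

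Tfe3, the close relative of Tfeb, showed no such difference. Its control arrays read 11.02, 11.23 and 11.37 unstimulated and 10.62, 11.41 and 10.85 after LPS, and its ΔTrspM arrays 11.07, 11.16 and 11.27 unstimulated and 11.10, 11.38 and 10.99 after LPS. The groups overlapped in both genotypes. The 95% interval of the LPS difference was -0.74 to 0.25 in control and -0.50 to 0.49 in ΔTrspM cells.

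The membrane transporters and channels were the role with the widest spread. Cln3 read 9.99, 10.23 and 10.41 in unstimulated control arrays and 11.21, 11.35 and 11.20 after LPS. In ΔTrspM cells it read 9.95, 10.15 and 10.22 unstimulated and 10.80, 11.35 and 11.12 after LPS. No LPS array fell as low as an unstimulated one in either genotype. Cln3 rose by 1.04 ± 0.20 in control and 0.98 ± 0.20 in ΔTrspM cells, with adjusted p of 0.0045 and 0.0066 in limma. In control cells the call was lost with no scaling, at 0.79. In ΔTrspM cells it was lost under median centring, at 0.57, and without the arrays numbered 2, at 0.88 with an adjusted p of 0.068 in limma, and with no scaling the value was -0.14, where the median of all genes was -0.73. The promoter of Cln3 with a pair of CACGTG copies is printed above. Its second probe set also rose, by 1.41 and 1.71, with adjusted p of 0.0044 and 0.0016 in limma over all probe sets.

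Npc1 read 11.19, 10.52 and 10.94 in unstimulated control arrays and 10.21, 9.38 and 10.23 after LPS, so all LPS arrays lay lower. In ΔTrspM cells it read 10.93, 11.22 and 11.04 unstimulated and 9.76, 10.52 and 10.37 after LPS, again without overlap. It fell by 0.95 ± 0.29 in control cells, at an adjusted p of 0.04999 in limma. In ΔTrspM cells the difference was -0.85 ± 0.29, with an adjusted p of 0.075 in limma, which did not pass. With replicate number as a block the control value just missed the threshold, at an adjusted p of 0.0501 in limma. Leaving out 1 array at a time ended the control call in 9 of 12 cases, with differences from -1.13 to -0.67, and the value without control LPS replicate 2 was -0.67.

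Ctns, the cystine exporter, read 8.16, 7.65 and 8.50 in unstimulated and 7.07, 7.32 and 7.33 in LPS-stimulated control arrays. In ΔTrspM cells the unstimulated arrays read 8.05, 7.97 and 8.37 and the LPS arrays 6.47, 7.98 and 7.41, so that replicate 2 alone stayed at its unstimulated level. Neither difference passed the test, with adjusted p of 0.127 and 0.133 in limma. Mcoln1, a calcium channel of the lysosomal membrane, differed by -0.02 in control and 0.02 in ΔTrspM cells, with arrays from 9.20 to 10.11 over all groups.

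**Figure D2:**
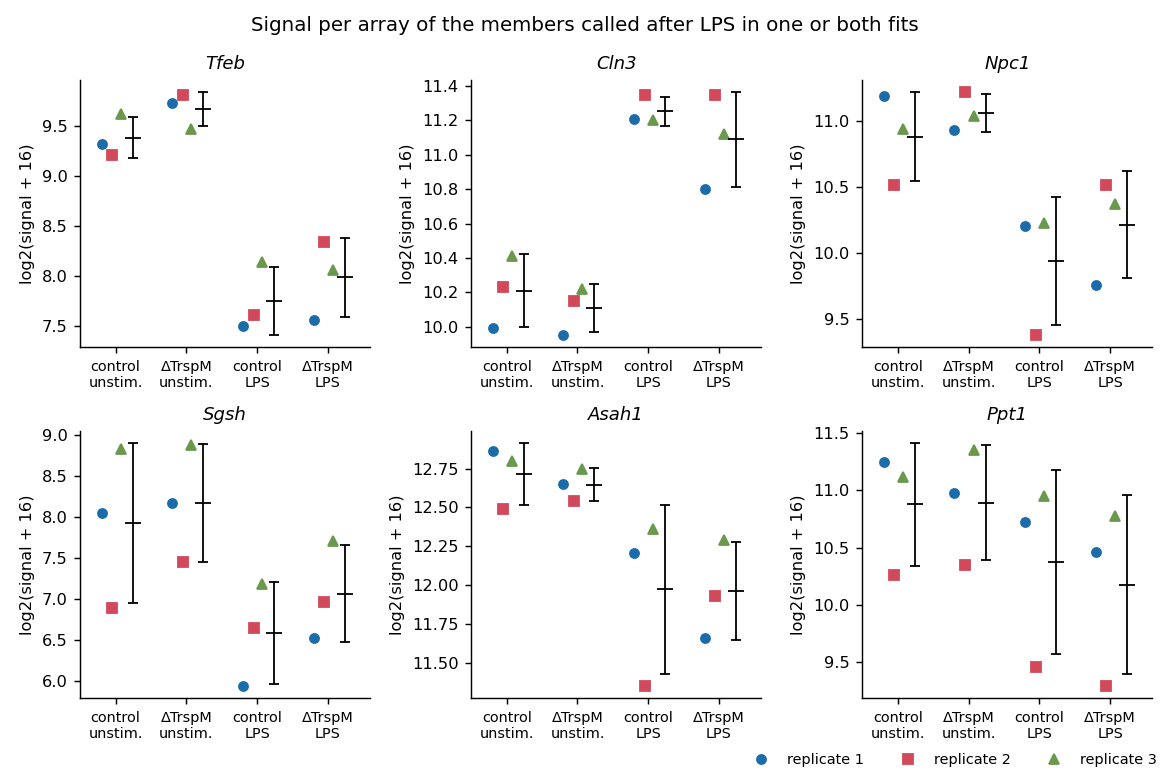
Signal of Tfeb, Cln3, Npc1, Sgsh, Asah1 and Ppt1 in every array as log2(signal + 16), by group, with a symbol for each replicate number and the mean ± SD (n = 3) beside each group. Vertical axes differ between panels and do not start at 0. Tfeb and Npc1 lie lower and Cln3 higher in all LPS arrays than in the unstimulated arrays of the same genotype, while the groups of Sgsh and Ppt1 overlap.

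The membrane glycoproteins and adaptors Lamp1, Lamp2, Cd68, Laptm5 and Scarb2 were not called in either genotype. On the probe sets used, their LPS differences ran from -0.45 to -0.10 in control and from -0.27 to -0.06 in ΔTrspM cells. Lamp1, a main structural glycoprotein of the lysosomal membrane, read 13.53, 13.45 and 13.58 in unstimulated and 13.46, 13.05 and 13.34 in LPS-stimulated control arrays, and these overlapped. In ΔTrspM cells it read 13.54, 13.47 and 13.62 unstimulated and 13.32, 13.39 and 13.27 after LPS, which separated. Its 4 promoter copies of CACGTG were the most of any member. Cd68 was lower without overlap in both genotypes, reading 13.35 to 13.61 against 12.77 to 13.33 in control and 13.47 to 13.64 against 13.12 to 13.36 in ΔTrspM arrays. Lamp2, a partner of Lamp1 with a part in autophagy, read 12.48 to 13.00 over all 12 arrays and Laptm5, an adaptor of haematopoietic lysosomes, 12.75 to 13.17. Scarb2, an abundant protein of the lysosomal membrane, read 10.54 to 12.01 and overlapped in both genotypes on the probe set used. A second probe set of Scarb2 separated in both. It read 11.40 to 12.03 against 10.73 to 11.27 in control and 11.45 to 12.06 against 10.54 to 11.16 in ΔTrspM arrays. Its differences of -0.71 and -0.79 did not pass, at adjusted p of 0.12 and 0.088 in limma over all probe sets. The signs of Lamp1, Lamp2 and Laptm5 turned under at least 1 other scaling in both genotypes, and that of Cd68 in ΔTrspM cells.

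The neutral lipid hydrolase Lipa and the cholesterol carrier Npc2 were not called in either genotype. Lipa, which frees cholesterol and fatty acids from their esters, read 13.28, 13.06 and 13.35 in unstimulated control arrays and 12.97, 11.96 and 12.70 after LPS. In ΔTrspM cells it read 13.32, 13.37 and 13.28 unstimulated and 13.10, 12.96 and 12.81 after LPS, so the groups were separate in both genotypes. The differences of -0.69 ± 0.24 and -0.37 ± 0.24 had adjusted p of 0.084 and 0.370 in limma and did not pass. In ΔTrspM cells that of Lipa turned to 0.11 under division by trimmed means. Npc2, which hands cholesterol to NPC1, read 13.46 to 13.65 in all 12 arrays.

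On the probe sets used, all 10 members of glycosphingolipid and sphingomyelin breakdown had lower means after LPS in both genotypes. None passed the test without the block. These were the hydrolases Gla, Glb1, Hexa, Neu1, Asah1, Smpd1, Galc and Arsa and the activator proteins Psap and Gm2a. Their differences ran from -0.74 to -0.22 in control and from -0.69 to -0.02 in ΔTrspM cells, with Psap, Hexa and Gm2a changing sign under another scaling in 1 or both genotypes. Asah1, the acid ceramidase, read 12.86, 12.49 and 12.80 unstimulated and 12.21, 11.35 and 12.36 after LPS in control arrays. Its ΔTrspM arrays read 12.65, 12.54 and 12.75 unstimulated and 11.66, 11.93 and 12.29 after LPS, and neither genotype overlapped. The control difference of -0.74 had an adjusted p of 0.095 in limma, and 0.044 in limma with the replicate block. Hexa, a subunit of hexosaminidase A, read 13.06 to 13.35 unstimulated and 12.35 to 13.12 after LPS in control arrays, which overlapped. Its ΔTrspM arrays separated by less than 0.01, with means of 13.14 and 12.86. Psap, the precursor of the saposins, read 13.53 to 13.92 in all 12 arrays, and its control arrays separated while its ΔTrspM arrays overlapped. Neu1, a sialidase, read 9.86, 9.86 and 10.22 unstimulated and 9.45, 9.68 and 9.64 after LPS in ΔTrspM arrays, which separated, while its control arrays overlapped. Gla, alpha-galactosidase A, also separated in ΔTrspM cells alone, at 11.46 to 12.00 against 10.95 to 11.42. Galc, which splits galactosylceramide, read 9.42, 8.70 and 9.07 unstimulated and 7.58, 8.90 and 9.12 after LPS in ΔTrspM arrays, so that replicate 1 alone was lower. The remaining members overlapped in both genotypes, with ranges over all 12 arrays of 9.85 to 11.33 for Glb1, 11.06 to 12.11 for the GM2 activator Gm2a, 8.01 to 9.60 for the acid sphingomyelinase Smpd1 and 9.16 to 10.17 for the sulfatide-cleaving Arsa.

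All 6 members of glycosaminoglycan breakdown, Gusb, Naglu, Sgsh, Arsb, Ids and Idua, also had lower means after LPS in both genotypes. This held on the probe sets used, under each of the 4 scalings. The direction of Arsb depended on single arrays. Leaving out 1 array at a time gave -1.20 to 0.63 in control and -1.13 to 0.49 in ΔTrspM cells. Sgsh, a sulfatase of heparan sulfate, had the largest difference among the hydrolases of the member list on the probe sets used. It read 8.05, 6.89 and 8.83 in unstimulated control arrays and 5.94, 6.65 and 7.18 after LPS. In ΔTrspM cells it read 8.17, 7.45 and 8.88 unstimulated and 6.53, 6.97 and 7.70 after LPS. The groups overlapped, but each LPS array lay below the unstimulated array of its number in all 6 pairs. The differences were -1.33 ± 0.53 and -1.10 ± 0.53, with adjusted p of 0.124 and 0.203 in limma, and with the replicate block the adjusted p were 0.021 and 0.045 in limma. Sgsh was singled out after its values were seen. Ids, the iduronate sulfatase, separated in both genotypes on the probe set used. It read 11.73 to 11.88 against 10.75 to 11.58 in control and 11.69 to 11.83 against 10.89 to 11.44 in ΔTrspM arrays. Other probe sets of Ids ran against it, as given below. Idua, the iduronidase, separated in control cells, at 9.41 to 9.83 against 9.15 to 9.33, and overlapped in ΔTrspM cells. A second probe set of Idua ran the other way, at 0.15 in control and 0.38 in ΔTrspM cells, and was not called.

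Gusb, the beta-glucuronidase that served as the internal control of the qPCR in the study, read 13.45, 12.98 and 13.37 in unstimulated and 12.90, 11.79 and 13.10 in LPS-stimulated control arrays. Its ΔTrspM arrays read 13.30, 13.22 and 13.48 unstimulated and 12.88, 12.32 and 13.15 after LPS. The ΔTrspM arrays separated and the control arrays overlapped, and every LPS array was below the unstimulated array of its number. The differences of -0.67 ± 0.34 and -0.55 ± 0.34 did not pass, at adjusted p of 0.223 and 0.326 in limma. Between genotypes the unstimulated means of Gusb were 13.27 ± 0.25 and 13.33 ± 0.13 (SD, n = 3).

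The remaining members, hydrolases and Grn, split. Gaa, which degrades glycogen, had higher means after LPS, at 9.32 to 9.93 against 9.56 to 10.22 in control and 9.35 to 10.11 against 9.87 to 10.23 in ΔTrspM arrays, which overlapped, and its sign turned in control cells under trimmed means and no scaling and in ΔTrspM cells under median centring and no scaling. Man2b1, the alpha-mannosidase of glycoproteins, was lower without overlap in both genotypes, with differences of -0.39 and -0.31 that did not pass and turned in ΔTrspM cells under division by trimmed means. Tpp1, a tripeptidyl peptidase, Ppt1, which removes palmitate from proteins, and Grn, which encodes progranulin, were lower in all 6 same-numbered pairs. The sign of Grn turned under median centring in both genotypes. Tpp1 read 11.66 to 12.90 and Grn 13.05 to 13.61 over all 12 arrays, and Grn separated in control cells. For Ppt1 the ΔTrspM difference of -0.72 ± 0.49 had an adjusted p of 0.379 in limma, and 0.025 in limma with the replicate block. With the block, 1 member was called higher and 3 lower in each genotype, where 9.15% and 13.4% of all genes were called higher and lower in control and 9.28% and 13.2% in ΔTrspM cells.

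Sequence and response were then set side by side. The 9 members with a CACGTG window had LPS differences from -1.33 to 1.04 in control cells, with a median of -0.24, and 7 were lower. The 23 members with a window but no CACGTG had a median of -0.44, and 22 were lower. In ΔTrspM cells the medians were -0.22 and -0.31. These are descriptions of overlapping ranges and were not tested.

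The second question was whether loss of selenoproteins altered these genes. No member was called between ΔTrspM and control cells, unstimulated or after LPS, by limma, where 0% and 0.011% of all genes were called. None of the 34 reached an unadjusted p under 0.05 in either state, where 2.39% and 5.78% of all genes did. The methods' t-test at its threshold of 0.01 found none in either, where 0.764% and 0.896% of all genes passed it. The means were higher in ΔTrspM cells for 22 members unstimulated and 27 after LPS, with medians of 0.02 and 0.14 beside 0.04 and 0.04 over all genes. Higher means were found in 56.5% and 55.3% of all genes. The median after LPS turned to -0.14 under median centring and to -0.66 with no scaling, beside -0.08 and -0.60 over all genes. Without control LPS replicate 2 it was -0.025, and without the arrays numbered 2 it was 0.028. The unstimulated median was -0.10 without control unstimulated replicate 2, -0.033 without ΔTrspM unstimulated replicate 3 and -0.035 without the arrays numbered 2, so neither median had a stable direction. Of 9 macrophage markers, Cd68 among them, 7 had lower means in ΔTrspM cells unstimulated and 6 after LPS, with medians of -0.12 and -0.14. The medians of 8 stromal markers were 0.24 and 0.32 and those of 7 osteoclast markers 0.36 and 0.04. No marker was called between genotypes in limma, and their part in the member values was not tested. On the probe sets used, no member separated the genotypes without overlap in either state, where 7.32% and 9.14% of all genes did. Other probe sets of Man2b1 and Npc2 did separate in unstimulated cells, without being called in limma. A second probe set of Man2b1 read 8.77 to 9.70 in control and 8.51 to 8.64 in ΔTrspM arrays. Another of Npc2 read 10.97 to 11.26 against 10.78 to 10.89.

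The precision of these comparisons varied between members. The 95% interval of the difference lay within 2-fold in either direction for 28 members unstimulated and 29 after LPS. Arsb, Sgsh, Naglu, Gla and Ppt1 were outside this in both states. The smallest p values unstimulated were those of Tfeb, Neu1, Npc1 and Gla, with differences of 0.28 ± 0.25, 0.19 ± 0.20, 0.18 ± 0.29 and 0.25 ± 0.41 and adjusted p of 0.9999 in limma. The interval of Tfeb ran from -0.27 to 0.83.

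After LPS the smallest p values belonged to Lipa, Psap, Arsa and Gaa. Lipa was higher in ΔTrspM than in control cells in all 3 pairs, by 0.41 ± 0.24 with an interval of -0.12 to 0.95 and an adjusted p of 0.917 in limma. Without control LPS replicate 2, which read 11.96, the difference was 0.12. Psap, Arsa and Gaa differed by 0.18 ± 0.16, 0.28 ± 0.25 and 0.29 ± 0.27, with adjusted p of 0.945 to 0.951 in limma. Over both states together, where 0.022% of all genes were called, Tfeb, Lipa, Neu1 and Npc1 led with differences of 0.26, 0.25, 0.16 and 0.23 and adjusted p of 0.963 in limma.

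**Figure D3:**
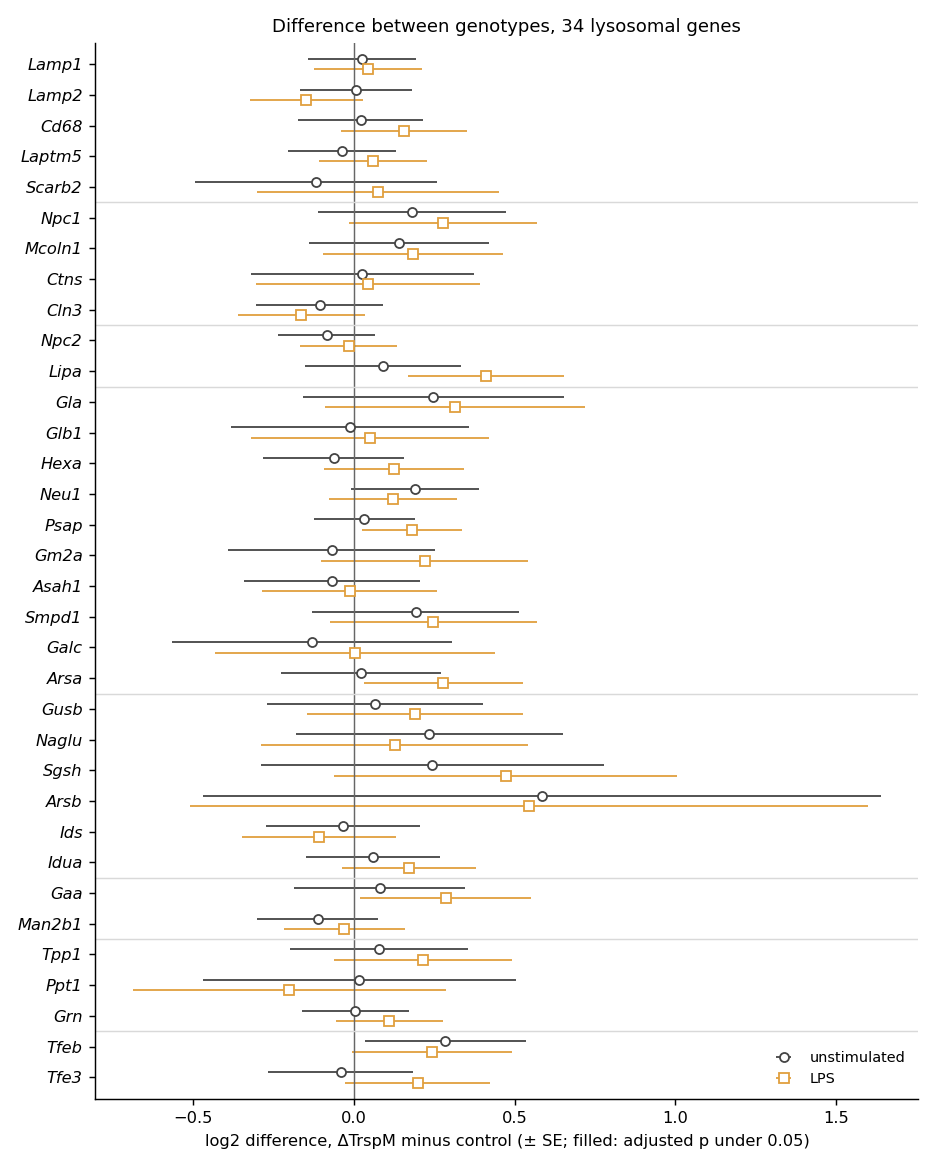
Difference in log2 signal between ΔTrspM and control cells for each of the 34 members, with circles for unstimulated and squares for LPS-stimulated cells and bars of 1 standard error. No symbol is filled, since no member had an adjusted p under 0.05 in limma, and the bars of most members cross 0, with the widest at Arsb.

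Whether the LPS response itself differed between genotypes was tested as an interaction. No member and no gene was called in limma, so the background is 0%. No member had an unadjusted p under 0.05, where 3.05% of all genes did. The leading members were Lipa at 0.32 ± 0.34, Tfe3 at 0.24 ± 0.32, Arsa at 0.26 ± 0.35 and Psap at 0.15 ± 0.22, each with an adjusted p of 1.00 in limma. The interaction of Npc1, called after LPS in control cells alone, was 0.10 ± 0.41.

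The largest spread within groups belonged to Arsb, the sulfatase of dermatan sulfate, and it followed the replicate number. Control arrays read 12.27, 9.14 and 11.77 unstimulated and 11.84, 9.07 and 11.55 after LPS for replicates 1, 2 and 3. The ΔTrspM arrays read 12.43, 9.94 and 12.57 unstimulated and 12.17, 9.82 and 12.11 after LPS. Replicate 2 was the lowest array of all 4 groups, on average 2.68 below replicate 1. In a limma F-test of replicate number within groups, chosen after the values were seen, the adjusted p of Arsb was 0.00039, and by its p it was number 3 of 18193 genes. Arsb was also higher in ΔTrspM than in control arrays in all 6 same-numbered pairs. The mean of that difference was 0.57 ± 0.13 with the replicate block, at an adjusted p of 0.290 in limma.

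Ppt1, Glb1, Scarb2, Naglu and Smpd1 were called for replicate number as well, making 6 of 34 members, where 6.46% of all genes were called. Glb1, the beta-galactosidase, read 11.33, 10.61 and 11.19 in unstimulated control arrays, and Naglu, another enzyme of heparan sulfate breakdown, read 10.07, 9.37 and 10.75. In each of these 6 members replicate 2 was the lowest array of every group. The mean over all 34 members was also lowest in replicate 2 of every group, at 11.02, 11.24, 10.58 and 10.96 against 11.04 to 11.60 in the other arrays. The mean over all genes was lowest there too, at 7.57 to 7.65 against 7.65 to 7.79. What replicate number stands for, beyond a biological replicate, was not stated, and its part in the values was not tested further.

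**Figure D4:**
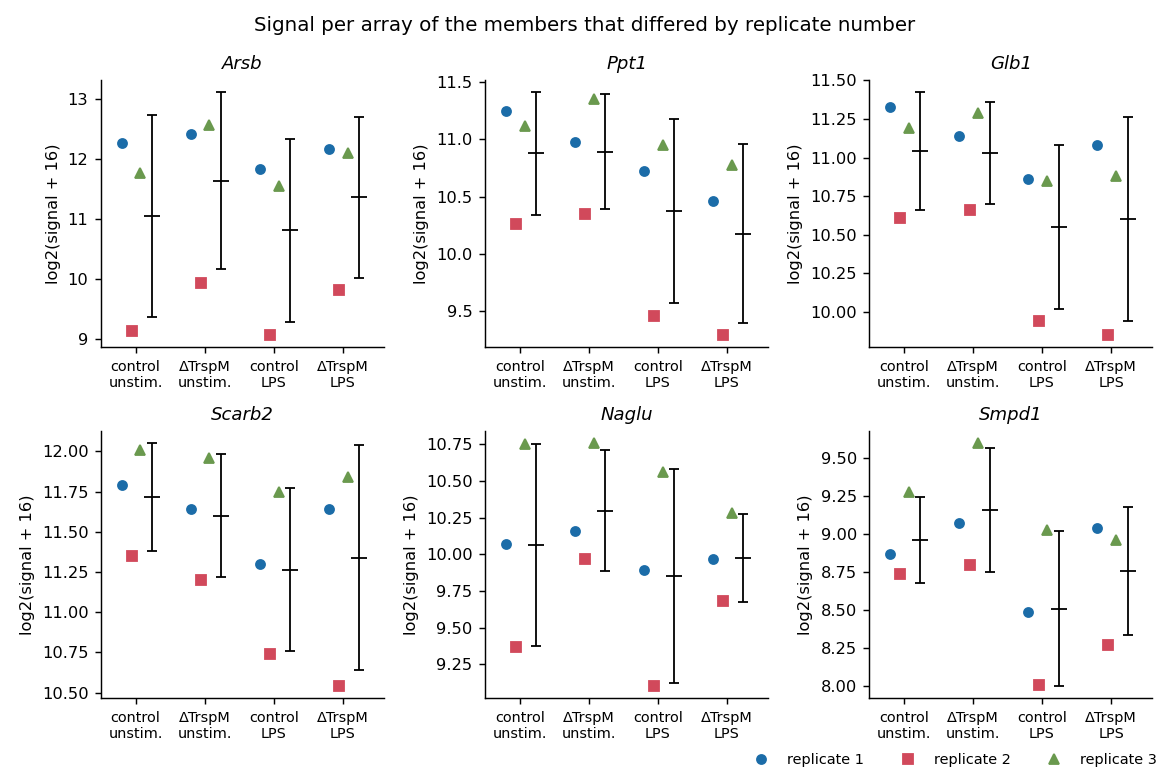
Signal of the 6 members called for replicate number in every array as log2(signal + 16), with a symbol for each replicate number and the mean ± SD (n = 3) beside each group. Vertical axes differ between panels and do not start at 0. The squares of replicate 2 are the lowest symbol of each group in all panels, and in Arsb they lie at 9.07 to 9.94 while the other arrays lie at 11.55 to 12.57.

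Lists of further genes of the pathway gave the setting for the members. Of 26 further hydrolases and sorting proteins, 1 was called higher and 2 lower after LPS in control cells and 0 and 4 in ΔTrspM cells, with median differences of -0.37 and -0.25. For each list the shares of all genes called were 7.09% higher and 8.54% lower in control and 7.29% and 8.51% in ΔTrspM cells. Pla2g15, a lysosomal phospholipase, fell by 2.12 ± 0.31 and 1.61 ± 0.31, with adjusted p of 0.00093 and 0.0049 in limma. Its control arrays read 11.23, 10.60 and 11.30 unstimulated and 9.15, 8.32 and 9.30 after LPS, so the groups lay far apart. Of 17 subunits of the V-ATPase, the proton pump of the lysosome, 1 was called higher and 0 lower in each genotype, with 7 and 4 subunits at an unadjusted p under 0.05 in limma, where 28.1% and 28.5% of all genes had one. The subunit was Tcirg1, which rose by 0.71 ± 0.17 and 0.98 ± 0.17, with adjusted p of 0.016 and 0.0031 in limma. In ΔTrspM cells it was called under 22 of 23 alternatives. Its differences there ran from 0.24 to 1.27, with adjusted p up to 0.77 in limma.

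Among 22 genes that regulate TFEB or belong to its family, 1 was called higher and 4 lower in control cells, and 1 higher and 2 lower in ΔTrspM cells. Of all genes, 7.09% were called higher and 8.54% lower in control cells, and 7.29% and 8.51% in ΔTrspM cells. The gene called higher was Tfec, a relative of Tfeb found in macrophages. Its control arrays read 8.62, 10.32 and 8.91 unstimulated and 12.45, 12.78 and 12.45 after LPS, and its ΔTrspM arrays 8.83, 9.55 and 9.45 against 12.01, 12.54 and 12.48. It rose by 3.28 ± 0.39 and 3.07 ± 0.39, or 9.69-fold and 8.38-fold, with adjusted p of 0.00028 and 0.00048 in limma. Tfec thus rose in the same arrays in which Tfeb fell.

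Flcn, folliculin, which controls TFEB and TFE3 at the lysosome, and its partner Fnip2 fell in both genotypes. Flcn read 10.60, 9.82 and 10.82 in unstimulated and 8.62, 9.04 and 9.13 in LPS-stimulated control arrays. It fell by 1.49 ± 0.27 in control and 1.15 ± 0.27 in ΔTrspM cells, with adjusted p of 0.0038 and 0.016 in limma. Without ΔTrspM unstimulated replicate 3 the adjusted p of Flcn in ΔTrspM cells was 0.062 in limma, and 0.057 in limma without the arrays numbered 2. Fnip2 fell by 2.07 ± 0.38 and 1.56 ± 0.38, with adjusted p of 0.0038 and 0.018 in limma. With the replicate block, 14 in place of 6 genes of the 3 lists were called lower in control and 11 in place of 6 in ΔTrspM cells. Over all genes the block raised the share called lower from 8.54% to 13.4% in control and from 8.51% to 13.2% in ΔTrspM cells. No gene of the 3 lists was called between genotypes or for the interaction in limma, and at an unadjusted p under 0.05 there were 0 unstimulated, 3 after LPS and 1 for the interaction, beside the shares of all genes given above for the members.

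**Figure D5:**
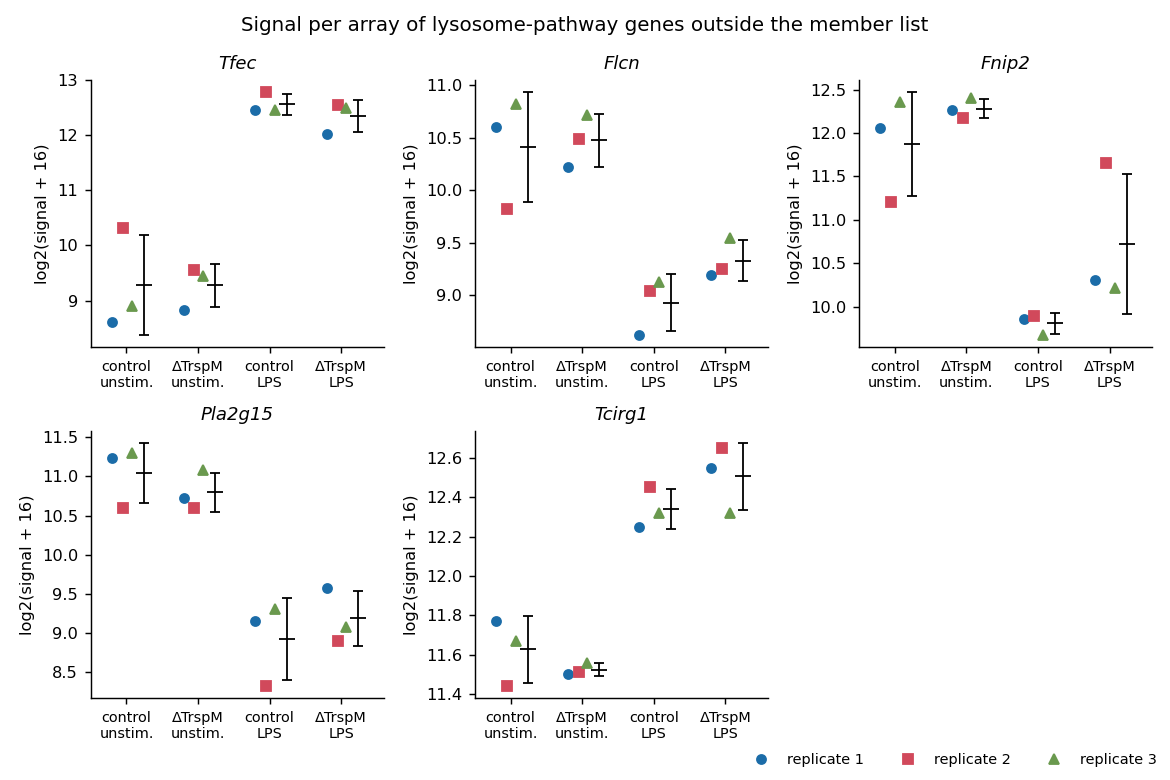
Signal of Tfec, Flcn, Fnip2, Pla2g15 and Tcirg1 in every array as log2(signal + 16), with a symbol for each replicate number and the mean ± SD (n = 3) beside each group. Vertical axes differ between panels and do not start at 0. Tfec and Tcirg1 lie higher and Flcn, Fnip2 and Pla2g15 lower in all LPS arrays of a genotype than in its unstimulated arrays.

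The members had 79 probe sets in all, from 1 to 6 a gene, and 11 members had only 1. Of the 45 that were not used, 30 had a mean signal of at least 100. The LPS difference of these had the direction of the probe set used in 23 of 30 in control and 18 of 30 in ΔTrspM cells. Ids had other probe sets that ran against the one used, and its mean over probe sets was 0.29 and 0.23 after LPS, where the probe set used gave -0.51 and -0.58.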

How the data were processed

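Total RNA of 12 BMDM cultures was hybridised to an Affymetrix mouse GeneChip. The authors normalised the signals with Expression Console and deposited linear intensities for 45101 probe sets (summarisation method: not stated in the sources read). All 12 sample columns were assigned and 0 columns of other samples were present. After removal of 64 control probe sets, the intensities were quantile-normalised, 16 was added and log2 was taken. Through the platform annotation 34945 probe sets had 1 gene symbol, 932 several and 9160 none. Differences were tested in R 4.3.3 with limma 3.58.1 (lmFit, eBayes) on 4 group means, with 8 residual degrees of freedom; the methods' unpaired t-test was an alternative, as were other scalings, offsets, filters, probe set rules and left-out arrays. The fits were tested on simulated data.

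Replicate numbers from the labels paired the arrays: deviations of the 12 same-numbered pairs of compared groups correlated at 0.13 to 0.44, all over 0.1, so blocked values (6 residual degrees of freedom) are given where they changed a call. That replicates came from separate animals was not stated, and p-values measure the spread between these arrays.

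The members and lists were chosen with earlier results of these data known. Fold changes were given for members called after LPS, for the 4 smallest p values in each genotype and interaction contrast, and for at most 4 genes of the pathway lists in each LPS contrast; Sgsh, Asah1, Ppt1, Lipa, Gusb, Man2b1, Arsb and Ids were added after their values were seen. Some genes of the pathway lists were not analysed here.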

Additional observations from a re-analysis of the deposited data

Results flagged for a closer look

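Signals of probe sets that stood for no gene in the comparisons were looked at for the same members. A second probe set of Man2b1 was lower after LPS, with a difference of -3.45 in control and -3.16 in ΔTrspM cells, with adjusted p of 0.00012 and 0.00024 in limma over all probe sets with 1 symbol. Its control arrays read 9.70, 8.77 and 9.26 unstimulated and 6.54, 5.25 and 5.57 after LPS, and its ΔTrspM arrays 8.61, 8.64 and 8.51 against 5.70, 4.95 and 5.60. The probe set used for Man2b1 differed by only -0.39 and -0.31. The annotation used here gives both as Man2b1, and which part of the transcript each one reads was not tested.

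A second probe set of Gusb was lower after LPS, with a difference of -1.17 in control cells, at an adjusted p of 0.041 in limma, and of -0.96 in ΔTrspM cells, with an adjusted p of 0.088 in limma. The probe set used for Gusb gave -0.67 and -0.55 and did not pass.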

How the results depend on the processing

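Tfeb kept its call after LPS in both genotypes under every alternative run, with differences of -2.17 to -1.44 in control and -2.89 to -1.46 in ΔTrspM cells. The counts of calls for members moved more. In control cells the count called higher went from 1 to 0 with no scaling, and the count called lower from 2 to 4 with trimmed means or a trended robust fit and to 1 with no scaling, with an offset of 1, with only the arrays compared and without the arrays numbered 2, an alternative chosen after seeing the data. In ΔTrspM cells the count called higher went from 1 to 0 with median centring, with no scaling and without the arrays numbered 2, and to 2 with trimmed means. The count called lower went from 1 to 5 with median centring, 4 with trimmed means, 6 with no scaling, 3 with the replicate block and 2 with an offset of 64, the mean of probe sets, the filter on dim genes and the trended robust fit. Calls over all genes moved too. In control cells 2844 were called in the fit used above. They were 3396 with trimmed means, 893 with no scaling, 3202 with the trended robust fit and 4108 with the replicate block. In ΔTrspM cells 2874 were called, and 3951 with median centring, 3511 with trimmed means, 3325 with no scaling and 4086 with the replicate block. Of these ΔTrspM calls 46.1%, 33.0%, 37.7%, 7.88% and 41.3% were higher. In control cells the calls over all genes were 2502 with the offset of 1 and 2197 without the arrays numbered 2. With the filter they were 3328 of 11627 genes. In ΔTrspM cells they were 3332 with the offset of 64, 2639 with the mean of probe sets and 3136 with the trended robust fit. There they were 3277 with the filter and 2046 without the arrays numbered 2. With only the arrays compared they were not counted. The pathway lists had 3 genes called higher in control cells, and 1 with no scaling, with only the arrays compared and without the arrays numbered 2. They had 6 called lower, and 11 with trimmed means, 3 with no scaling, 10 with the filter, 13 with the trended robust fit and 14 with the replicate block. In ΔTrspM cells 2 were called higher, against 4 with trimmed means, the offset of 64, the mean of probe sets, the filter and the trended robust fit and 1 with no scaling. There 6 were called lower, against 12 with no scaling, 10 with the trended robust fit and 11 with the replicate block. Members called for replicate number went from 6 to 3 with median centring, 18 with no scaling and 11 with the offset of 64. In the fit used above 6.46% of all genes were called for replicate number. That share was not analysed under other settings or with arrays left out, so these counts are not results about the members.

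Leaving out 1 array at a time gave 1 to 3 members called lower in control and 1 to 3 in ΔTrspM cells (3 without control LPS replicate 2), 1 to 3 pathway genes called higher and 4 to 8 lower in control, 2 to 3 and 2 to 10 in ΔTrspM cells, and 2 to 7 members called for replicate number. Over the same runs, 1912 to 3114 of all genes were called after LPS in control and 1704 to 3075 in ΔTrspM cells. The LPS difference of Arsb ran from -1.20 to 0.63 in control and from -1.13 to 0.49 in ΔTrspM cells, and the unstimulated genotype difference of Gla from -0.18 to 0.47.

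Directions turned as follows, and beyond the shift of all genes the cause was not tested. With no scaling all genes shifted together, with medians of -0.73 for LPS in ΔTrspM cells, -0.60 for genotype after LPS, -0.33 over both states and -0.59 for the interaction. The LPS difference of Cln3 in ΔTrspM cells was then -0.14. The genotype difference after LPS was then -0.22 for Lipa, -0.11 for Psap, -0.65 for Arsa and -0.65 for Gaa, that over both states -0.22 for Tfeb, -0.10 for Lipa, -0.39 for Neu1 and -0.31 for Npc1, and the interaction -0.24 for Lipa, -0.63 for Tfe3, -0.55 for Arsa and -0.084 for Psap. With median centring the difference after LPS was -0.14 for Arsa and -0.14 for Gaa, that over both states -0.082 for Neu1 and -0.0066 for Npc1, and the interaction -0.22 for Tfe3 and -0.14 for Arsa. Division by trimmed means turned Lipa after LPS in ΔTrspM cells to 0.11. The mean of probe sets turned Ids after LPS to 0.29 in control and 0.23 in ΔTrspM cells and Neu1 over both states to -0.072. Without the arrays numbered 2, the unstimulated genotype difference was -0.077 for Npc1 and -0.13 for Gla, and that over both states -0.12 for Npc1. Among all genes, the share of LPS calls that were higher moved from 45.4% to 34.2% with trimmed means in control cells and from 46.1% to 33.0% with median centring and 7.88% with no scaling in ΔTrspM cells. The counts of members called in the genotype and interaction contrasts were 0 under all alternatives run. With 3 arrays a group no exact test could go below 0.1.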
